A study of Drosophila melanogaster with 16 samples.

Results

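Regions enriched for H3K9me3 were listed by the authors once for each driver, and the regions described here are all those on chrU and chrUextra, the unplaced scaffolds of the Drosophila melanogaster genome build dm3. There were 1305 such regions among the 5144 of the tj list and 1382 among the 5421 of the nos list, 2687 of 10565 in all. From the lists they were chosen by the chromosome name alone. The lists themselves rest on measured H3K9me3, because they hold regions found enriched. Ovaries came from flies aged 3 to 5 days kept at 25 degrees, and chromatin of 50 ovaries went into each immunoprecipitation. In the 2 control groups white, an eye colour gene, was knocked down with Tj-GAL4 or with nos-GAL4, and in the other 2 groups piwi was knocked down with the same driver (labelled Tj-GAL4->white, nos-GAL4->white, Tj-GAL4->piwi and nos-GAL4->piwi). Each of these 4 groups had 1 H3K9me3 library, out of the 16 samples of the series. No difference below has a replicate check, no p-value was computed, and the intervals cover counting error only.

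H3K9me3 is the trimethylated form of lysine 9 of histone H3. It is written by histone methyltransferases, is bound by heterochromatin protein 1 and marks silent chromatin. Piwi is a nuclear Argonaute protein that small RNAs guide to nascent transposon transcripts, and in fly ovaries its loss is known to go with less H3K9me3 at some transposons. Much of the fly's heterochromatin surrounds the centromeres and is built of transposon fragments and satellite DNA. Such repeats are hard to assemble, which is why many pieces were never placed on a chromosome. In dm3 those pieces were joined end to end, the better supported ones in chrU and short, less certain ones in chrUextra. Neighbouring positions on these 2 sequences are therefore not known to be neighbours in the fly.

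Tj-GAL4 is known to be active in the somatic cells that surround the germline of the ovary, and nos-GAL4 in the germline. The chromatin came from ovaries with both kinds of cells. A mark lost in some cells and a mark weakened in all of them cannot be told apart in these libraries. Levels of piwi, of white and of cell markers were not analysed here, so neither the knockdowns nor the tissue was checked. What sequence each region holds was not analysed here either.

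The deposited RPM (reads-per-million) of every region were whole multiples of 1 read, which gave library totals of 1435888 (tj piwi), 1451863 (tj white), 987157 (nos piwi) and 1385901 reads (nos white). The nos piwi library stood apart from the other 3. Its total was 39.3% of the total recovered from the deposited transposon table for the same library, against 46.4% to 47.8% in the others. Listed regions of the whole genome took 57.8% of its reads, against 53.0% to 54.8% in the others. For this reason the main nos medians and 2-fold counts are given below also with the totals of the transposon table. Those totals lower every nos log2 ratio by 0.24 and every tj log2 ratio by 0.02. Single regions, pairs and stretches are given with the deposited RPM alone.

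The regions on chrU and chrUextra made up 25.4% of the tj list and 25.5% of the nos list. They covered 2361.5 kb and 2367.0 kb, which was 14.2% and 14.6% of the listed bases. On chrUextra lay 938 of the tj regions (71.9%) and 988 of the nos regions (71.5%), and on chrU 367 and 394. Together they took 9.04% of all reads in tj white and 9.34% in nos white. The 2 control libraries thus gave these regions nearly equal shares.

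Regions were short, above all on chrUextra. Region ends fell on steps of 500 bases. In the tj list the median length was 1000 bases on chrUextra and 2000 bases on chrU, and 38.8% of chrUextra regions were 500 bases long against 8.72% on chrU. Regions of at least 3000 bases were 37.9% of those on chrU and held 75.1% of the chrU reads in tj white. On chrUextra they were 7.57% and held 33.0%. The chrUextra regions were not spread evenly along that sequence. Those beyond 28 Mb covered 440.5 kb of its 1212.5 kb (36.3%).

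The longest unplaced region of the tj list, chrU:2012001-2048000, spanned 36 kb and had 936 RPM in tj piwi and 858 RPM in tj white (ratio 1.09, 95% counting interval 1.01 to 1.18). The nos list cut the same stretch in 2. The longer piece, chrU:2028501-2048000, had 578 RPM in nos piwi and 490 RPM in nos white (ratio 1.18, 1.05 to 1.32). Next in length was chrU:384501-414500, with 905 RPM in tj piwi and 933 RPM in tj white (ratio 0.970, 0.898 to 1.05). In the nos list its counterpart chrU:382001-413500 was the longest unplaced region, with 1233 and 1167 RPM (ratio 1.06, 0.980 to 1.14). The same 21 kb were listed under both drivers as chrU:3791001-3812000, at 497 RPM in piwi and 475 in white under tj and at 574 and 491 under nos (ratios 1.05 and 1.17). All ratios of these long regions lay within 1.2-fold of 1.

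Signal per length differed between the scaffolds already in the controls. The median density in tj white was 31.7 RPM per kb on chrUextra and 22.3 on chrU, and in nos white it was 30.3 and 23.1. Regions on the chromosome arms had medians of 19.8 and 20.2 RPM per kb, and those on the Het scaffolds (assembled heterochromatin of known chromosomes) had 25.8 in both controls. Because the lists give no input values per region, copy number, mappability and the amount of the mark cannot be told apart in these densities. The input libraries of the series were not analysed here. No ratio of piwi over white given here is corrected for input. A difference between samples in copy number and one in the mark thus cannot be told apart in the ratios either.

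Among the unplaced regions the highest densities in the controls belonged to regions of 500 or 1000 bases on chrUextra. In tj white chrUextra:9215501-9216000 reached 353 RPM per kb, chrUextra:13809001-13809500 reached 328 and chrUextra:25257501-25258500 reached 323. In tj piwi the same regions had 347, 318 and 351 RPM per kb, with ratios of 0.983, 0.969 and 1.09 whose counting intervals held 1. In nos white the highest was chrUextra:24282001-24282500 at 413 RPM per kb, followed by chrUextra:25257501-25258500 at 373 and chrUextra:13809001-13809500 at 345. In nos piwi these had 434, 509 and 466 RPM per kb, with ratios of 1.05, 1.36 and 1.35, the last 2 with intervals above 1.

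The regions with the most reads of all lay on chrU and were singled out after their values were seen. The 7 kb of chrU:1041501-1048500 had 1761 RPM in piwi and 1440 in white knockdown under tj, and 2239 and 1384 under nos. Its ratios were 1.22 under tj (1.15 to 1.30) and 1.62 under nos (1.52 to 1.72). The 15 kb of chrU:1966001-1981000 had 1625 and 1337 under tj and 1778 and 1207 under nos, with ratios of 1.22 (1.14 to 1.29) and 1.47 (1.38 to 1.58). In both regions each piwi library lay above both white libraries.

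The first comparison asked whether H3K9me3 at unplaced heterochromatin differed between piwi and white knockdown under tj, the somatic driver. Over all 1305 regions the median log2 ratio of piwi over white was 0.02, beside -0.02 over all regions of the list. Ratios lay above 1 for 665 regions (51.0%), against 47.7% of the list, and below 1 for 640. Together the regions took 9.02% of the reads in tj piwi and 9.04% in tj white, a ratio of summed RPM of 0.997 (95% counting interval 0.990 to 1.005). At least 2-fold higher were 62 regions (4.75%), where 8.07% of all listed regions were, and at least 2-fold lower were 50 (3.83%), where 9.14% were. Counting intervals lay above 1 for 141 regions and below 1 for 117, and held 1 for 1047. Of all listed regions 16% had an interval above 1 and 20.1% one below, against 10.8% and 8.97% on chrU and chrUextra. Both shares on the unplaced scaffolds were below those of the whole list, but their regions also had fewer reads, with a median of 49 reads in the higher library against 66.

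Regions whose better covered library held 100 reads or more were therefore also taken alone. The tj list had 377, whose log2 ratios had a median of -0.004 and quartiles 0.35 apart. Among them 2 were at least 2-fold higher and 4 at least 2-fold lower. Regions of the chromosome arms with as many reads numbered 1076, had quartiles 0.64 apart, and were 2-fold higher in 65 cases and 2-fold lower in 114. Those of the Het scaffolds numbered 397, with quartiles 0.35 apart and 1 and 2 such cases.

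Both scaffolds had tj medians near 0, at -0.02 for chrU and 0.02 for chrUextra. In summed RPM chrU was at 0.975 of the control (0.963 to 0.987) and chrUextra at 1.01 (1.002 to 1.022). By length the median log2 ratio was -0.03 for the 396 regions of 500 bases, 0.04 for the 379 of 1000 bases, 0.08 for the 320 of 1500 to 2500 bases and -0.03 for the 210 of at least 3000 bases. The spread narrowed with length, from quartiles 0.71 apart at 500 bases to 0.34 at 3000 bases or more. Past 2-fold, 30 regions of 500 bases were higher (7.58%) and 30 lower (7.58%). Of that length 23.4% and 20.3% were on the arms, and 15% and 12.5% on the Het scaffolds. Of the longest class 1 was higher and 1 lower, against 92 and 134 of 1190 on the arms and 2 and 1 of 385 on the Het scaffolds.

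**Figure D1:**
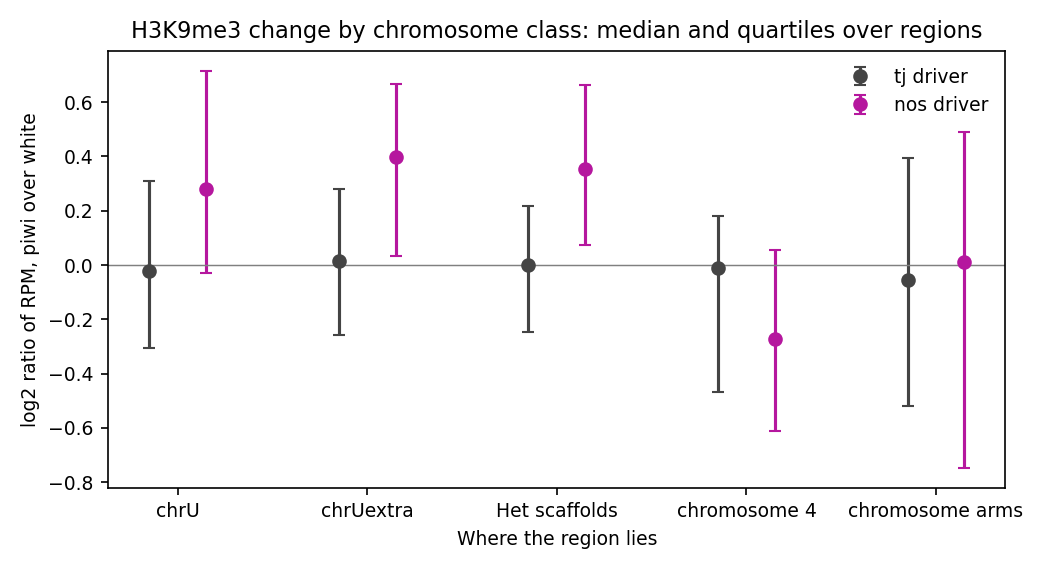
Median log2 ratio of RPM in piwi over white knockdown, on the vertical axis, for regions on chrU, chrUextra, the Het scaffolds, chromosome 4 and the chromosome arms. Points are medians and bars run from the lower to the upper quartile over regions, which are not replicates. Under tj all medians lie between -0.05 and 0.02. Under nos chrU, chrUextra and the Het scaffolds lie at 0.28, 0.40 and 0.35 and chromosome 4 at -0.27.

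Regions of each scaffold were put into 3 classes of near-equal size by density. On chrUextra the class of lowest density (9.49 to 24.2 RPM per kb, averaged over both libraries) had a median log2 ratio of 0.02, with 28 regions at least 2-fold higher and 27 lower. The densest class (41.6 to 350) had 0.01, with 2 higher and 5 lower. Density classes were not made for other chromosomes, so these counts have no like share of the list beside them. On chrU the lowest and the densest class had -0.007 and -0.06. This density holds both libraries of the ratio, so the classes are not independent of the change. With classes set by the density in nos white, over regions with 1 partner in that list, the chrUextra medians from lowest to densest were 0.07, -0.03 and 0.007, and those of chrU were 0.08, 0.02 and -0.10.

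The largest tj ratio among regions with at least 100 reads was that of chrUextra:25342001-25343000, with 92.6 RPM in tj piwi and 37.9 in tj white (ratio 2.45, 1.77 to 3.41). It was followed by the 500 bases of chrUextra:13275001-13275500, with 78.7 and 35.8 RPM (ratio 2.20, 1.57 to 3.11). Then came chrUextra:28548501-28550000 at 260 and 135 RPM (ratio 1.92, 1.61 to 2.30). On chrU the largest were chrU:8170501-8174000 at 96.8 and 51.0 RPM (ratio 1.90) and chrU:7543001-7545000 at 102 and 53.7 RPM (ratio 1.89). All 5 intervals lay above 1.

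The smallest tj ratio among them was that of chrU:4025001-4028500, with 32.7 RPM in tj piwi and 103 in tj white (ratio 0.319, 0.225 to 0.445). The 1500 bases of chrU:9170001-9171500 had 75.9 and 200 RPM (ratio 0.380, 0.302 to 0.475). On chrUextra, chrUextra:5287501-5288500 had 27.9 and 68.9 RPM (ratio 0.404, 0.273 to 0.589). Smaller gaps were those of chrUextra:28508501-28509500 at 52.2 and 110 RPM (ratio 0.474) and of chrU:2833001-2835500 at 41.1 and 79.9 RPM (ratio 0.514). The nos list drew other borders around both. It had chrUextra:28507001-28509500 at a ratio of 1.08, and parts of the chrU region at 1.35 and 0.702, all 3 with intervals that held 1.

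**Figure D2:**
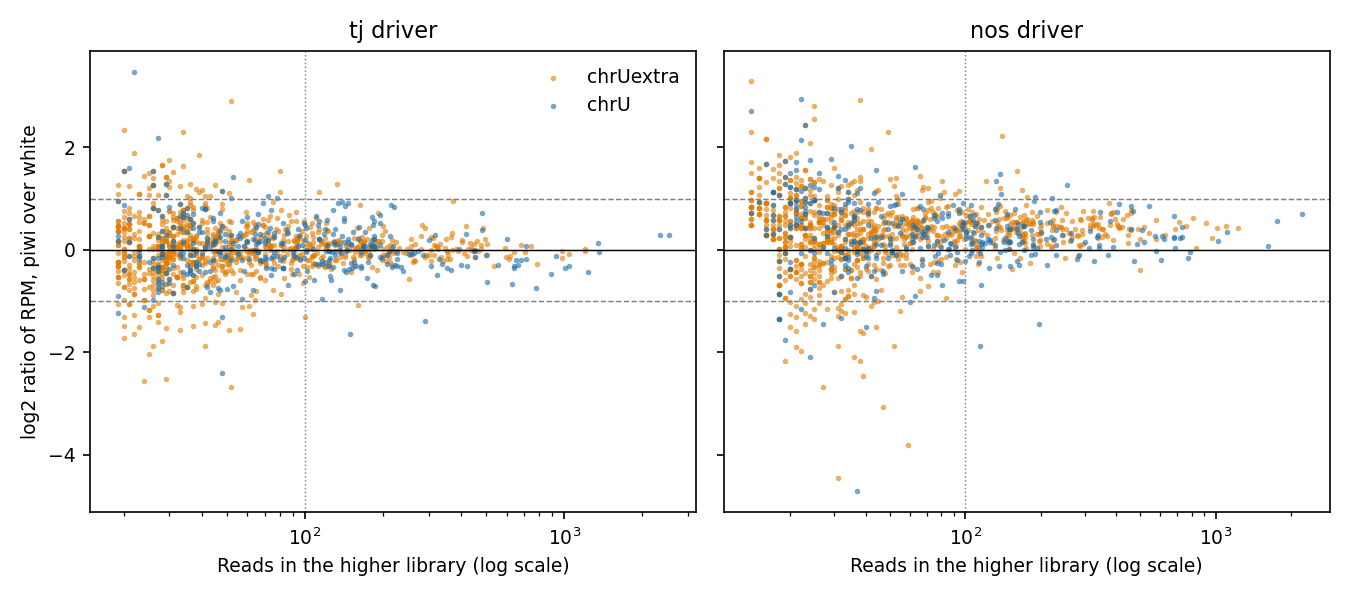
Log2 ratio of RPM in piwi over white knockdown (vertical axis) against the reads in the higher of both libraries (horizontal axis, log scale) for every region on chrU (blue) and chrUextra (orange), by driver. Dashed lines mark 2-fold and the dotted line 100 reads. The 6 nos regions with 0 reads in 1 library have no finite ratio and are not drawn. Past 100 reads few regions reach 2-fold, and most nos points lie above 0.

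The second comparison asked the same under nos, the germline driver. The median log2 ratio over the 1382 regions was 0.38 (1.30-fold), beside 0.16 over all listed regions. Ratios lay above 1 for 1046 regions (75.7%), against 60.1% of the list and 78.4% on the Het scaffolds, and below 1 for 336. The regions took 11.98% of the reads in nos piwi and 9.34% in nos white, a ratio of summed RPM of 1.28 (95% counting interval 1.273 to 1.293). With the totals of the transposon table the median was 0.14, and centred on the median of all regions it was 0.22. The total of the nos piwi library thus moves with this result, and its part in it was not tested.

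At least 2-fold higher were 151 regions (10.9%), where 11.4% of all listed regions were. At least 2-fold lower were 54 (3.91%), where 13.8% were. The share of 2-fold higher regions was therefore near that of the list. Counting intervals lay above 1 for 445 regions (32.2%), where 27.8% of the list did, and below 1 for 57 (4.12%), where 17.6% did. Scaled by the totals of the transposon table, 87 of the 1382 regions (6.3%) passed 2-fold upwards and 84 (6.08%) downwards. Of the 5421 listed regions 413 passed 2-fold upwards and 917 downwards with these totals. Centred on the median of all regions, 111 and 74 of the unplaced regions did. The balance of their higher and lower calls thus depends on the scaling.

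A difference between chromosome classes within the nos libraries does not depend on the library totals. The median of the unplaced regions was 0.37 above that of the 3198 regions on the chromosome arms (0.009) and 0.66 above that of the 115 on chromosome 4 (-0.27), and 0.03 above that of the 726 on the Het scaffolds (0.35). Under tj the same differences were 0.07, 0.03 and 0.02. In summed RPM the nos ratios were 1.28 for the unplaced regions, 1.27 for the Het scaffolds, 0.970 for the arms and 0.822 for chromosome 4. With 1 library in each group these gaps were not tested. With the totals of the transposon table the nos medians were 0.14 for the unplaced regions, 0.11 for the Het scaffolds, -0.23 for the arms and -0.51 for chromosome 4.

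On chrU the nos median was 0.28, with 46 regions at least 2-fold higher and 14 lower, and on chrUextra it was 0.40, with 105 and 40. The summed ratios were 1.24 (1.22 to 1.25) and 1.31 (1.30 to 1.33) by the deposited RPM. Under tj chrU was also below chrUextra, at 0.975 and 1.01. These intervals leave out the spread between regions and between libraries, and the gap between the scaffolds was not tested. Every length class had a median above 0 by the deposited RPM. It was 0.44 for the 464 regions of 500 bases and 0.34 at 1000 bases. At 1500 to 2500 bases it was 0.30, and for the 190 regions of at least 3000 bases 0.32. Of those 190, 109 (57.4%) had an interval above 1 and 5 one below. Among Het regions of that length the share was about the same, with 219 of 388 above (56.4%) and 19 below, and on the arms 278 of 1141 lay above and 336 below. By the deposited RPM, the 67 long regions on chrUextra had a median of 0.44, and 54 of them had an interval above 1 and 0 one below.

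By density averaged over both libraries, the lowest of the 3 chrUextra classes under nos had a median log2 ratio of 0.28, the middle class 0.33 and the densest, at 47.3 to 441 RPM per kb, 0.44. In the densest class 177 of 329 intervals lay above 1 and 3 below, against 54 and 25 of 330 in the lowest, whose regions also had fewer reads (medians of 110 and 26 in the higher library). On chrU the medians of the 3 classes were 0.35, 0.24 and 0.27. Since this density includes the piwi library, a higher ratio itself moves a region to a denser class, and density in nos white alone has the opposite fault. By nos white the chrUextra medians were 0.57, 0.21 and 0.40, and the chrU medians 0.72, 0.20 and 0.16, so the order depends on the library that sets the classes. Density in tj white, which shares no reads with the nos ratio, gave 0.28, 0.39 and 0.41 on chrUextra and 0.35, 0.20 and 0.25 on chrU over regions with 1 partner in the tj list. The classes by single white libraries were added after the data were seen.

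The largest nos ratio among the 357 regions with at least 100 reads was again that of chrUextra:25342001-25343000, with 142 RPM in nos piwi and 30.3 in nos white (ratio 4.68, 3.29 to 6.77). The 500 bases of chrUextra:7274001-7274500 had 163 and 56.3 RPM (ratio 2.90, 2.20 to 3.85), and under tj 78.7 and 59.2 RPM (ratio 1.33, 0.995 to 1.78). On chrU, chrU:228001-230500 had 139 and 49.8 RPM (ratio 2.79, 2.07 to 3.78). The 3 kb of chrU:1229001-1232000 had 134 and 52.7 RPM (ratio 2.54), and the tj list had 135 and 84.0 RPM for the surrounding 5 kb (ratio 1.61). The fifth was chrUextra:13275001-13275500 with 123 and 48.3 RPM (ratio 2.54, 1.87 to 3.47), which had also been among the 5 largest under tj.

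Of these 357 regions 12 (3.36%) were at least 2-fold higher and 2 (0.560%) at least 2-fold lower. With as many reads, 44 of 952 regions on the chromosome arms were higher and 171 lower, and 21 of 384 on the Het scaffolds were higher and 0 lower. The unplaced regions that were lower were chrU:7543001-7545000, with 22.3 RPM in nos piwi and 82.3 in nos white (ratio 0.271, 0.163 to 0.430), and chrU:5768001-5770500, with 51.7 and 141 RPM (ratio 0.365, 0.263 to 0.499). The next smallest were chrU:3862501-3866500 at 51.7 and 83.7 RPM (ratio 0.617, 0.435 to 0.865), chrUextra:8769501-8771000 at 275 and 359 RPM (ratio 0.764, 0.656 to 0.888) and chrUextra:1265001-1267000 at 86.1 and 111 RPM (ratio 0.775, 0.587 to 1.02). The last 2 were lower under tj too, at ratios of 0.805 (0.707 to 0.916) and 0.737 (0.571 to 0.948).

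In the nos list 6 of the 1382 unplaced regions had 0 reads in 1 library, and in the tj list 0 of the 1305 did. Over the whole lists 31 of 5421 nos regions and 7 of 5144 tj regions did. The 6 unplaced regions are named here for that reason, after their values were seen, and their folds are bounds against 3 reads per library. In nos piwi chrU:4025001-4026000 had 0 reads against 39 in nos white (at least 9.26-fold lower), and chrU:4027001-4028500 had 0 against 54 (at least 12.8-fold lower). Both lie within chrU:4025001-4028500, the region with the smallest tj ratio among those with at least 100 reads. This stretch was thus low in both piwi libraries. The other 4 had 0 reads in nos white. They were chrU:8173501-8174000, with 43 reads in nos piwi (at least 20.1-fold higher), chrUextra:2832001-2833000 with 22 (at least 10.3-fold), chrU:8460001-8460500 with 20 (at least 9.36-fold) and chrUextra:27953001-27953500 with 15 (at least 7.02-fold). The first of these lies within chrU:8170501-8174000, whose tj ratio was 1.90, while the rest of that stretch in the nos list, chrU:8170501-8172000, had a ratio of 0.806 (0.516 to 1.24).

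The 2 lists were then overlaid. They do not share control libraries, but region borders were drawn separately in each. Of the unplaced tj regions 1149 (88.0%) overlapped a nos region by at least 1 base, and of the unplaced nos regions 1159 (83.9%) overlapped a tj region. The overlap was not computed for other chromosomes or the whole lists. Whether these shares differ from theirs is therefore not known. Unplaced regions found in 1 list alone numbered 156 and 223. These were weaker, with median densities in white of 17.9 and 17.3 RPM per kb against 30.3 in both lists for overlapping regions. At least 2-fold higher were 15.4% of the tj and 30.0% of the nos regions found in 1 list alone, against 3.31% and 7.25% of overlapping regions. At least 2-fold lower were 7.05% and 8.52%, against 3.39% and 3.02%. Whether a region was listed because it was high in 1 library was not tested. Of the 151 nos regions that were at least 2-fold higher, 67 were absent from the tj list, as were 223 of all 1382 unplaced nos regions.

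Regions that met exactly 1 partner formed 1074 pairs, 775 of them with identical borders. In these identical regions the median density was 33.1 RPM per kb in tj white, 33.4 in tj piwi, 33.2 in nos white and 41.97 in nos piwi. Together they took 5.598% of the reads in tj white, 5.59% in tj piwi, 5.73% in nos white and 7.37% in nos piwi. The first 3 libraries thus gave nearly the same level at the same regions and the nos piwi library a higher one. The nos log2 ratio was above the tj log2 ratio in 601 of the 775 (77.5%), and in 266 of the 292 pairs with at least 100 reads in both lists (91.1%). These counts were not repeated with the totals of the transposon table. Across the 1074 pairs the changes under both drivers were correlated at 0.40 by Pearson and 0.38 by Spearman. The points come from 4 libraries of unequal depth, and the value is a description.

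Few regions passed 2-fold under both drivers. Of the 1074 pairs 34 were at least 2-fold higher under tj and 73 under nos, and 14 were so under both (41.2% of the former and 19.2% of the latter). At least 2-fold lower were 37 and 29, and 9 under both (24.3% and 31.0%). Among pairs with at least 100 reads in both lists the highest mean log2 ratio was that of chrUextra:25342001-25343000, described above, where each piwi library lay above both white libraries. The same held for chrUextra:13275001-13275500 and for chrUextra:2501-5500, next by mean, at 114 RPM in piwi and 62.0 in white under tj and 139 and 59.9 under nos (ratios 1.83 and 2.32). At lower depth, and named after its values were seen, chrUextra:19008501-19009000 had 52 and 7 reads under tj and 38 and 7 under nos (ratios 7.51 and 7.62).

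The pairs with the lowest mean and at least 100 reads did not have like ratios under both drivers. The 1500 bases of chrU:9170001-9171500 were low in tj piwi (75.9 RPM) and at 192 to 206 RPM elsewhere (200 in tj white, 192 in nos piwi, 206 in nos white), so its nos ratio was 0.936 (0.775 to 1.13). Next was chrU:999001-1003000, with 54.3 and 93.7 RPM under tj (ratio 0.580, 0.433 to 0.772) and 68.9 and 81.5 under nos (ratio 0.845, 0.616 to 1.15). The third by mean, chrU:7543001-7545000, had ratios on opposite sides of 1. Lower under both drivers at fewer reads, and named after their values were seen, were chrU:5632001-5633000 with 9 and 48 reads under tj and 1 and 37 under nos, and chrUextra:528501-529500 with 11 and 41 and with 4 and 47. Their tj ratios were 0.190 (0.082 to 0.391) and 0.271 (0.126 to 0.537), and their nos ratios 0.038 (0.001 to 0.225) and 0.119 (0.031 to 0.327).

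**Figure D3:**
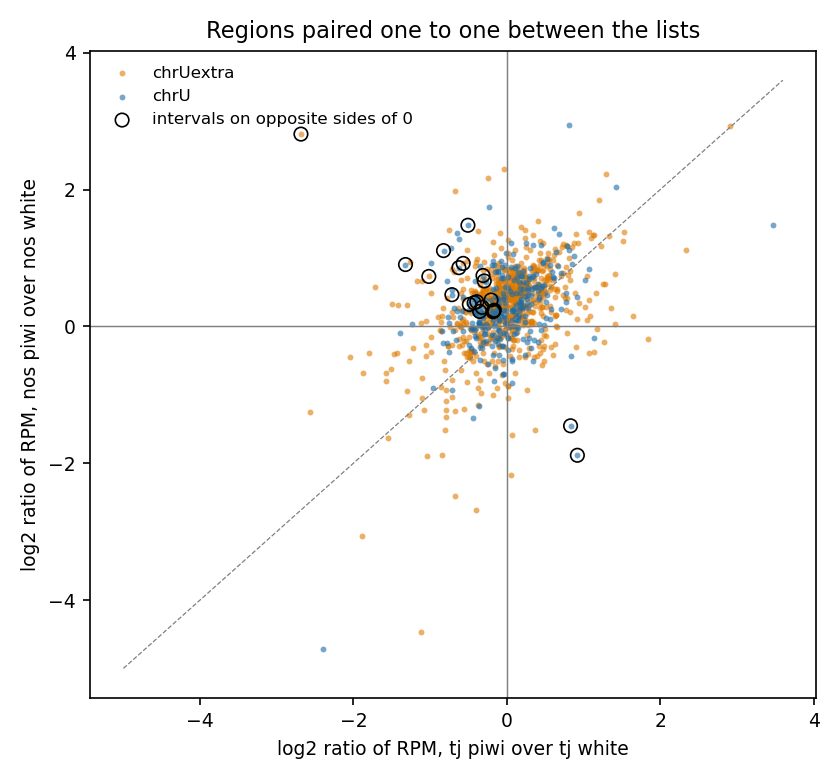
Log2 ratio of RPM in piwi over white knockdown under nos (vertical axis) against that under tj (horizontal axis) for 1074 regions on chrU (blue) and chrUextra (orange) that met exactly 1 partner in the other list. The dashed line marks equal values and circles mark the 21 pairs whose counting intervals lie on opposite sides of 0. Most points lie above the dashed line, and of the circled pairs 19 are lower under tj and higher under nos.

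By the deposited RPM, counting intervals lay on opposite sides of 1 in 21 pairs. Of these 19 had a lower tj and a higher nos ratio and 2 were the other way round. The 2 were chrU:7543001-7545000, at ratios of 1.89 under tj and 0.271 under nos, and chrU:5768001-5770500, at 1.78 (153 and 86.1 RPM) and 0.365. In both the tj white and the nos piwi library were low, and the tj piwi and nos white libraries were high.

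Of these 19 pairs 11 lay in the first 1 Mb of chrU, a stretch singled out after its values were seen. It held 42 of the 1074 pairs. Their median log2 ratio was -0.31 under tj and 0.35 under nos, against -0.02 and 0.24 for the 243 pairs on the rest of chrU. Their summed RPM was 5563 in tj white, 4365 in tj piwi, 5186 in nos white and 6752 in nos piwi. By the deposited RPM the 2 controls thus lay between both piwi libraries. This order was not recomputed with the totals of the transposon table and may depend on them. An example with many reads is chrU:64501-81500, with 849 RPM in tj white, 632 in tj piwi, 802 in nos white and 1020 in nos piwi (ratios 0.745, 0.683 to 0.812, and 1.27, 1.17 to 1.39). The 12 kb of chrU:210501-222500 had 346, 224, 302 and 547 RPM in the same order (ratios 0.649, 0.562 to 0.747, and 1.81, 1.59 to 2.07). Likewise chrU:228001-230500 was at 0.704 (0.529 to 0.933) under tj and 2.79 under nos.

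**Figure D4:**
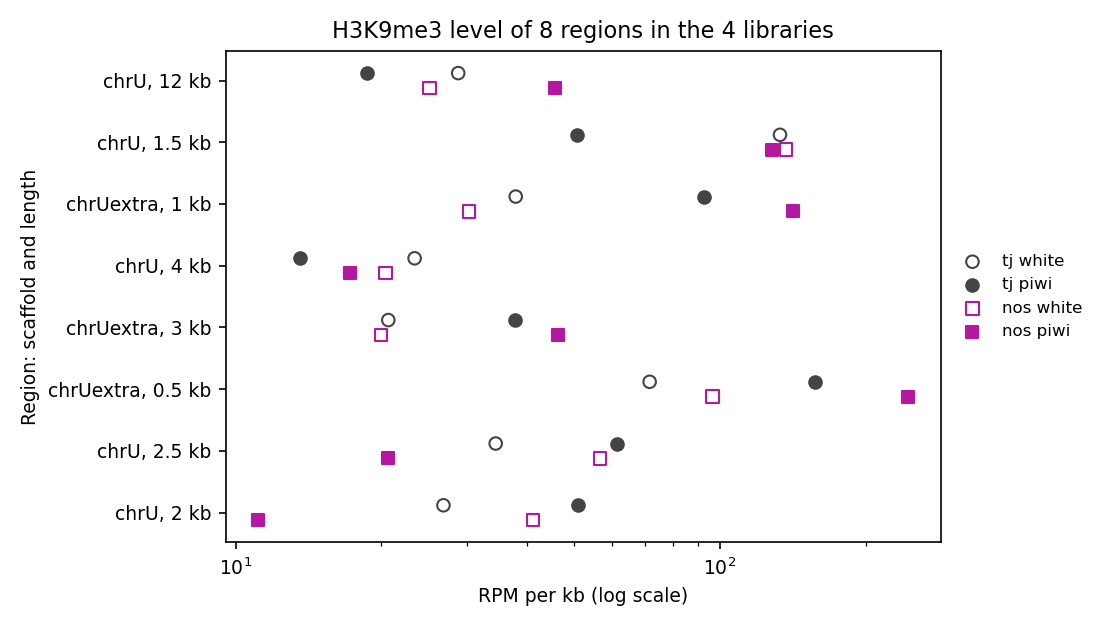
H3K9me3 ChIP-seq signal in RPM per kb, not corrected for input (horizontal axis, log scale), of 8 regions in the tj white, tj piwi, nos white and nos piwi libraries. Regions are named by scaffold and length. The regions are the 3 highest and 3 lowest pairs by mean log2 ratio with at least 100 reads in both lists, and 2 more pairs with ratios on opposite sides of 1. In the 3 chrUextra regions both piwi points lie to the right of both white points. In the 2 kb and 2.5 kb chrU regions nos piwi lies leftmost.

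In stretches of 1 Mb with at least 20 regions, the tj median log2 ratio ran from -0.31 to 0.16 over 9 stretches of chrU and from -0.13 to 0.27 over 18 of chrUextra. The lowest was the first 1 Mb of chrU, where 24 of 59 intervals lay below 1 and 3 above. Under nos the medians ran from 0.04 to 0.48 over 10 stretches of chrU and from 0.05 to 0.60 over 21 of chrUextra. By the deposited RPM 10 of 10 and 21 of 21 were above 0. The totals of the transposon table lower each by 0.24, which would put the lowest below 0. These counts therefore depend on the library totals. The stretch of chrUextra beyond 28 Mb, which held the most regions, had a tj median of 0.01 over 177 regions and a nos median of 0.46 over 175, of which 162 had a ratio above 1. Its longest region, chrUextra:28927001-28944000, had 665 RPM in tj piwi and 676 in tj white (ratio 0.984, 0.899 to 1.08). Its nos counterpart chrUextra:28927001-28945000 had 980 and 727 RPM (ratio 1.35, 1.23 to 1.47).

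The authors' deposited tables give an adjusted p-value for each region. In the authors' deposited tables it was 1 wherever the deposited fold was below 1, so it speaks for higher regions alone. In the authors' deposited tables it was at or below 0.05 for 231 of the 1305 tj regions (17.7%), where 22.8% of the list were, and 636 of the 1382 nos regions (46.0%), where 37.3% were. These values compare the reads of 1 library with another and not replicated conditions.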

How the data were processed

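H3K9me3 ChIP-seq was available for 4 ovary samples, 1 per driver and knockdown, grouped by their titles. Per the submitters' processing notes Bowtie2 2.0.0, SICER 1.1 and genome build dm3 were used; their settings, and the handling of duplicates and of reads with several matches, are not given in the sources used here. Per the file headers, each row of the deposited lists holds the RPM of both libraries, a fold and a p-value with its adjusted form. All RPM values were whole reads within 1e-06 reads. The deposited fold equals the ratio of RPM with 1 read added to each library, by the values. The sources used here do not say whether regions were called in 1 library or both, and calling in 1 library alone could by itself favour regions that differ.

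The change of a region was its RPM in piwi over white knockdown as deposited, with a 95% interval by the exact Clopper-Pearson method on whole reads. It covers counting error only, because each group had 1 library. It also takes every read as a separate molecule, and PCR copies cannot be told from these. A value of 0 allows up to 3 reads, 2.07 to 3.04 RPM. No count model could be fitted with 1 library per group. Coordinates are 1-based. Named regions were, per driver, the 5 largest and 5 smallest ratios (100 reads or more in either library), the 3 longest and the 3 densest in white, and the 3 highest and 3 lowest overlapping pairs by mean log2 ratio. The members and rules were chosen with earlier results of these data known. The intervals were tested on simulated reads drawn from the counting model that they assume. This checks the calculation and cannot show how well they hold for real libraries. Alternatives were read minimums, other scalings, an added read, stricter p-values, single scaffolds, a 1.5-fold mark and other overlaps. Python 3.11.15, numpy 2.4.6, scipy 1.17.1, pandas 2.3.3 and matplotlib 3.10.9 were used.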

Additional observations from a re-analysis of the deposited data

Results flagged for a closer look

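In 3 overlapping regions with at least 100 reads in both lists the single libraries moved in opposite directions under the 2 drivers by at least 1.5-fold each. The difference was not tested. The log2 ratio under nos minus that under tj was -2.80 for chrU:7543001-7545000, -2.28 for chrU:5768001-5770500 and 1.48 for chrU:210501-222500.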

How the results depend on the processing

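No paired analysis was possible because each group has 1 library and the labels number no replicates; for the same reason no replicate could be left out. The overlap between lists was 1061 and 791 tj regions at 50% and 90% of each region, against 1149, and 45 among those at an authors' adjusted p of 0.001 or below, where 0 regions of either list can be 2-fold lower because only higher regions reach it; there the medians were 1.05 under tj and 0.77 under nos by construction. The tj median, near 0, changed sign with at least 100 reads (-0.0040), with the totals of the transposon table (-0.0043) and on chrU alone (-0.023), and was 0.041 and 0.070 when centred on all regions or, added after seeing the data, on the chromosome arms. The nos median stayed above 0 under every setting tried, at 0.33 with at least 20 reads, 0.22 centred on all regions, 0.14 with the totals of the transposon table, 0.28 on chrU and 0.40 on chrUextra. With at least 100 reads, regions 2-fold lower and higher numbered 4 and 2 under tj and 2 and 12 under nos, and on chrU alone 6 and 13, and 14 and 46. Fewer regions were counted in both settings, but at 100 reads the shares were lower too, at 1.06% and 0.531% under tj and 0.560% and 3.36% under nos; the cause was not tested. At 1.5-fold they were 138 and 157, and 105 and 417. With the totals of the transposon table the nos numbers were 84 and 87, where 917 and 413 of the 5421 listed regions passed. Other counts stayed within 1.5 times. Depth limits single regions: the quartiles of the log2 ratio were 0.78 (tj) and 0.85 (nos) apart under 20 reads and 0.35 and 0.40 apart at 100 reads or more.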
